A study of Mus musculus with 16 samples.

Results

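Oxidative phosphorylation genes were read in bulk RNA-seq of mouse TCF1+CD8+ T cells, as the protein-coding genes whose symbols begin with Nduf, Uqcr, Cox4 to Cox8, Atp5, mt-Nd, mt-Co, mt-Cytb or mt-Atp, or are Sdha, Sdhb, Sdhc or Sdhd. This rule found 107 of the 54532 genes in the count table. Of these, 94 lie in the nucleus, where 86 encode subunits and 8 encode the Ndufaf assembly factors of complex I, and 13 lie in the mitochondrial genome (mt). The nuclear subunits comprised 38 of complex I, 4 of complex II, 8 of complex III, 18 of complex IV and 18 of complex V, and the mt genes 7 of complex I, 1 of complex III, 3 of complex IV and 2 of complex V. The grouping followed the symbols, so that Ndufa4, whose protein is now placed in complex IV, was counted with complex I. Cox7a2l, whose protein has been linked to supercomplexes of complexes III and IV, was counted with complex IV. Its function in the cells of this mouse strain was not tested. Atp5s, named Dmac2l in RefSeq, was counted with the complex V subunits by its symbol alone. Cox stands here for cytochrome c oxidase, not for the cyclooxygenases that make prostaglandins.

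All 16 libraries came from CD8+ T cells that were taken naive from the spleens of C57BL/6J mice, activated repeatedly in culture and turned into TCF1+ cells over 4 days, a model grown in vitro. Cells were left untreated or received prostaglandin E2 (PGE2) at 100 ng/ml for 1 h, and were then kept for 4 h in IL-2 at 85 U/ml. During these 4 h the unstimulated groups received IL-2 alone, and the stimulated groups also received beads carrying antibodies to CD3 and CD28 at 1 bead per cell. IL-2 was therefore present in all 4 groups, each with 4 replicates. Below, PGE2 alone means PGE2 without beads and stimulation alone means beads without PGE2, both with IL-2. The comparisons ask how antigen-receptor stimulation and PGE2, a prostanoid signalling through the cAMP-raising receptors EP2 and EP4, change the transcripts of the respiratory chain.

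Oxidative phosphorylation takes place in the inner mitochondrial membrane. Complexes I and II pass electrons from NADH and succinate to ubiquinone, complex III hands them to cytochrome c, complex IV reduces oxygen, and complex V uses the proton gradient built on the way to make ATP. The mitochondrial genome encodes core subunits of every complex but complex II, is transcribed as long precursors that are cut into single mRNAs, and depends on nuclear genes for all its expression factors. Activated T cells enlarge their mitochondrial mass along with glycolysis, and stem-like CD8+ T cells are known to rely on respiration.

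The libraries held 22678254 to 42950763 counts, with a median of 30211840.5. The defining markers of CD8+ T cells were high in every library, with Cd8a at 667 to 1210 CPM (counts scaled to a common library size) and Cd3e at 218 to 344 CPM, and Tcf7, which encodes TCF1, lay between 289 and 1540 CPM. Summed markers of B cells (5 genes) reached 4.47 to 21.01 CPM, led by Cd79b, those of myeloid cells (5 genes) at most 0.507 CPM and those of erythroid cells (5 genes, 2 of them at 0 in every library) at most 0.821 CPM. Cd4 did not exceed 1.87 CPM. The 3 CD4 T cell markers summed to 14.5 to 40.1 CPM, mostly Zbtb7b, and the 4 NK cell markers to 5.55 to 178 CPM, nearly all of it Eomes, which CD8+ T cells also express. B cell markers summed to 10.1 to 21.01 CPM in the unstimulated and 4.47 to 11.7 CPM in the stimulated groups, and the 4 stem-like markers to 1733 to 2703 and 692 to 1010 CPM in the same order. Their part in the results was not tested. In bulk samples, fewer cells of a type and less RNA per cell cannot be told apart. The labels do not say whether the replicates came from separate animals or cultures, so p-values measure the spread between these libraries, which may be technical.

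In FPKM (fragments per kilobase of gene, scaled to library size), averaged over the 16 libraries, mt-Co1 stood at 5686, followed by mt-Nd1 at 991, mt-Cytb at 969, mt-Nd6 at 942, mt-Nd5 at 692, mt-Nd4 at 658 and mt-Nd2 at 498. mt-Co2 was at 94.4, mt-Atp6 at 41.2, mt-Co3 at 37.8, mt-Nd3 at 16.2, mt-Nd4l at 13.2 and mt-Atp8 at 5.04 FPKM. The low mt values belong to the 5 mt genes with full copies in the nuclear genome and to mt-Atp8, which lies between 2 of them. Poly(A) selection and the treatment of reads with several matches bear on these levels, so they do not rank the mt genes by transcript number.

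Of the nuclear subunits, those of complex IV had the highest median level (109 FPKM over the 13 genes at or above 1 FPKM), led by Cox8a at 359, Cox7a2l at 261 and Cox6a1 at 242 FPKM. Complex V followed with a median of 72.1 FPKM over 17 genes, with the catalytic subunit genes Atp5b at 274 and Atp5a1 at 251 FPKM on top. The medians were 64.1 FPKM in complex III (Uqcr10 at 145, Uqcrh at 137 and Uqcrfs1, the Rieske iron-sulfur protein, at 123), 54.3 FPKM in complex II (Sdhd 90.3, Sdhb 55.1, Sdha 53.6 and Sdhc 24.4) and 39.0 FPKM in complex I (Ndufb11 at 96.9, Ndufa1 at 92.1 and Ndufa2 at 90.7). The 8 Ndufaf assembly factors had a median of 8.70 FPKM, from Ndufaf2 at 3.88 to Ndufaf8 at 22.9 FPKM. At the lower end, Ndufb2 was listed at 1.17, Cox6b2 at 1.74 and Atp5s at 2.10 FPKM. The value of Ndufb2 is divided by a gene length of 5628 bases, long for the mRNA of so small a protein.

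**Figure D1:**
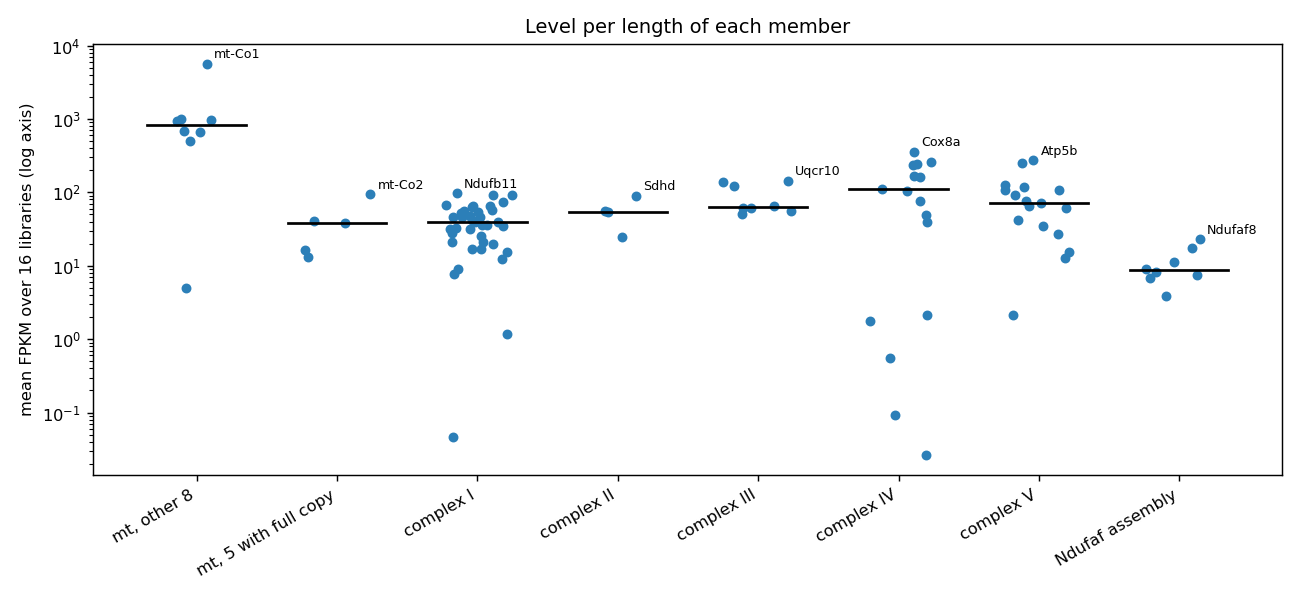
Mean FPKM over 16 libraries on a log axis for the 104 members above 0.01 FPKM. Each point is 1 gene, grouped by complex, with a line at the median of the genes at or above 1 FPKM. The 8 other mt genes reach 5686 FPKM with mt-Co1, the 5 mt genes with a full nuclear copy lie at 94.4 or below, and the assembly factors lie below most subunits.

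The 7 members that were hardly detected were mostly isoforms of other tissues. Cox4i2, the hypoxia-induced form of subunit 4, had at most 6 counts in a library, Ndufa4l2 4, Cox8b 2, Cox7b2 1, and Cox8c and a further Atp5o locus 0. Cox6a2, the heart and muscle form, had 2 to 31 counts and was tested in 2 of the 4 pairwise comparisons. The other 100 members were tested in every one.

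The mitochondrial counts rest on sequences that also exist in the nucleus. Parts of chromosome 1 around 24.61 Mb hold copies of mt genes, annotated as separate genes. mt-Co2 is identical to Gm28661 over 681 bases, mt-Atp6 to Gm10925 over 678, mt-Co3 to Gm28437 over 783 and mt-Nd4l to Gm10222 over 294, and mt-Nd3 matches Gm28438 in 344 of 345 bases. Smaller stretches of mt-Nd4 (63.6% of its length) and mt-Co1 (31.3%) have copies there too, whereas mt-Nd1, mt-Nd2, mt-Nd5, mt-Nd6 and mt-Cytb have none at 98% identity over 100 bases. The sequences below, from GRCm38, show why a read from mt-Co2 cannot be assigned, with 60 bases of mt-Co2 (chrM:7323-7382, plus strand) and of Gm28661 (chr1:24615196-24615255, minus strand), and then the first 60 bases of mt-Nd3 (chrM:9459-9518, plus strand) and Gm28438 (chr1:24613060-24613119, minus strand), where the capital marks the differing base, T3C counted from 1 at the 5′ end of mt-Nd3.
mt-Co2: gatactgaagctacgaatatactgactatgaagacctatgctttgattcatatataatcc
Gm28661: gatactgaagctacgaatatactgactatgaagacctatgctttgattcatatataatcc
mt-Nd3: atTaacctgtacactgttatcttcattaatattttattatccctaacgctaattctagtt
Gm28438: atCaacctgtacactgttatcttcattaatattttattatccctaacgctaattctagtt

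In the counts, the copies took 56.7% of the sum of mt-Atp6 and its copy, 45.8% for mt-Co2, 44.2% for mt-Nd4l, 40.1% for mt-Co3 and 16.9% for mt-Nd3, but 1.14% for mt-Nd4 and 0.409% for mt-Co1. The 5 mt genes with a full copy summed to 101, 125, 167 and 140 CPM in replicates 1 to 4 of the unstimulated untreated group, and to 59.8, 125, 102 and 174 CPM with PGE2. In the stimulated groups the sums were 72.6, 124, 159 and 187 CPM without and 225, 127, 158 and 168 CPM with PGE2. Replicate 1 was the lowest library in 3 groups and the highest in the stimulated PGE2 group. The chromosome 1 copies went the same way, with 101, 70.0 and 88.1 CPM in replicate 1 of those 3 groups against 259 CPM in replicate 1 of the stimulated PGE2 group. The 7 mt genes without a full copy and apart from mt-Atp8 did not set replicate 1 apart like this and summed to 13670 to 16010 CPM over the 16 libraries. Among them, mt-Nd4 and mt-Nd5 were highest in replicate 1 of all 4 groups.

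**Figure D2:**
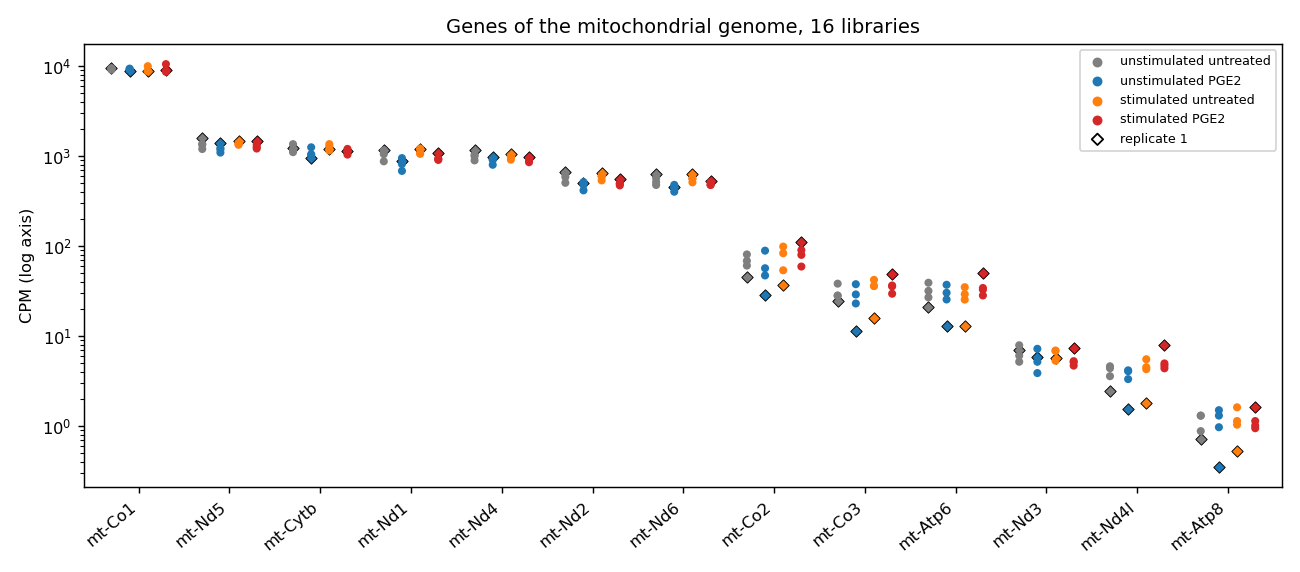
CPM of the 13 mt genes in each of the 16 libraries on a log axis, coloured by group, with replicate 1 as a diamond. From mt-Co2 to mt-Atp8, with mt-Nd3 as an exception, replicate 1 is the lowest point in 3 groups and the highest in the stimulated PGE2 group, as with the mt-Nd4l values of 2.43, 1.55, 1.80 and 7.96 CPM in replicate 1. The 7 genes on the left do not show this.

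The share of the library taken by the nuclear members was 1.064%, 1.015%, 1.054% and 1.054% in unstimulated untreated cells and 0.914%, 0.939%, 0.956% and 0.996% after PGE2, and these groups did not overlap. In stimulated cells it was 1.107%, 1.037%, 1.081% and 1.07% without and 1.033%, 1.007%, 1.01% and 1.065% with PGE2, and these overlapped. The mt genes took 1.61%, 1.55%, 1.537% and 1.666% in unstimulated untreated cells, 1.434%, 1.515%, 1.506% and 1.595% with PGE2, 1.332%, 1.341%, 1.504% and 1.463% after stimulation and 1.387%, 1.315%, 1.586% and 1.421% with both. Stimulation without PGE2 thus left every library below every unstimulated untreated library in its mt share, while the nuclear shares of these groups overlapped. mt-Co1 alone made up 58.5% to 67.5% of the mt counts. The log2 ratio of mt to nuclear counts averaged 0.60 ± 0.05 (SD, n = 4) in unstimulated untreated cells, 0.67 ± 0.02 with PGE2, 0.39 ± 0.09 after stimulation and 0.47 ± 0.12 with both. The 8 assembly factors together held on average 0.0132% in unstimulated untreated, 0.0103% in unstimulated PGE2, 0.0238% in stimulated untreated and 0.0199% in stimulated PGE2 libraries, and every stimulated library lay above every unstimulated one. These shares are of all counts, so a share also moves when other genes change.

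**Figure D3:**
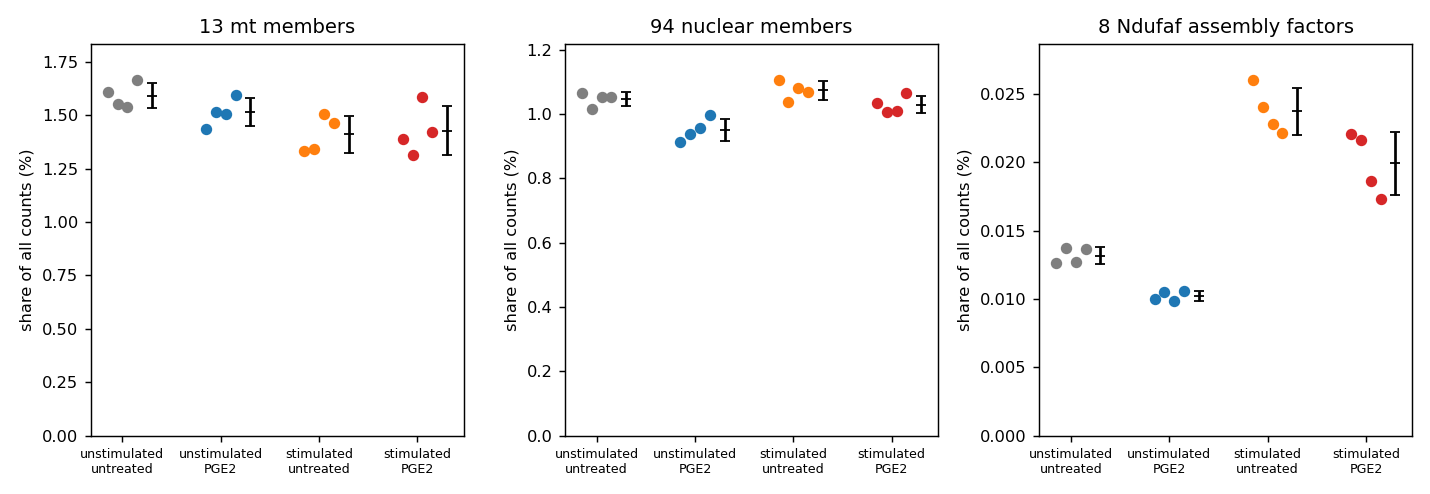
Percentage of all counts held by the 13 mt genes, the 94 nuclear members and, within these, the 8 Ndufaf assembly factors. Each point is a library, with the mean and SD of 4 beside it. The mt share averages 1.59% in unstimulated untreated and 1.41% in stimulated untreated libraries, the nuclear share 1.05% and 1.07%, and the assembly factor share 0.0132% and 0.0238%.

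Stimulation without PGE2 raised many nuclear genes of the respiratory chain by small amounts and passed the test for no mt gene. Of 88 nuclear members tested, 41 were higher and 8 lower in stimulated cells at an adjusted p below 0.05 in edgeR's quasi-likelihood test over all genes, where 31.7% of all genes tested were higher and 34.8% lower. The median log2 fold change was 0.20 over the nuclear members and 0.01 over the 13 mt genes, beside −0.03 over all genes. By role, the calls covered 7 of 8 assembly factors (all higher, median 0.80), 7 of 8 complex III subunits (all higher, median 0.46), and 9 of 17 in complex V (all higher, median 0.20). Complex I had 13 higher and 4 lower of 37 (median 0.15), complex IV 4 higher and 3 lower of 14 (median 0.12), and complex II 1 of each among 4. Changes were modest, since 5 nuclear members (Ndufaf4, Atp5g1 and Ndufa12 higher, Cox6b2 and Ndufv3 lower) also reached a 2-fold change, against 23.2% of all genes. Scaling of the libraries bears on the split, because all genes together had a median of −0.13 under upper-quartile factors and −0.18 with no factors. The nuclear calls were then 30 higher and 12 lower, and 24 higher and 18 lower. Over all 14205 genes tested, 3973 were higher and 5569 lower with upper-quartile factors, and 3684 higher and 5904 lower with no factors. The medians of complexes I and IV turned to −0.003 and −0.03 with no factors. The mt median turned to −0.09 with upper-quartile and −0.14 with no factors, with 0 and 2 lower calls. A change of scaling factors shifts all genes of a comparison nearly alike. The distances from the median of all genes, 0.23 for nuclear members and 0.04 for mt genes, therefore barely move. They do not test whether the split holds under another scaling.

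Stimulation in the presence of PGE2 gave 54 higher and 5 lower of 87 nuclear members, where 32.5% of all genes were higher and 31.7% lower, with a median log2 fold change of 0.25 beside 0.002 over all genes. By role, 7 of 8 assembly factors (median 0.85), 7 of 8 complex III subunits (0.53) and 11 of 17 complex V subunits (0.25) were higher and none lower. Complex I had 20 higher and 3 lower of 37 (0.23), complex IV 7 higher and 1 lower of 13 (0.17) and complex II 2 higher and 1 lower of 4 (0.05, which turned to −0.08 under upper-quartile factors). A 2-fold change was reached by 5 members, Ndufaf4, Ndufa12, Ndufaf6, Atp5g1 and Ndufaf8, against 22.1% of all genes. Of the mt genes, mt-Nd4l alone was called, and the mt median of 0.18 held 0.10 over the 7 genes without a full copy and 0.58 over the 5 with one. Without replicate 3 of the unstimulated PGE2 group or replicate 1 of the stimulated PGE2 group, the mt median was 0.09 and 0.08. Under upper-quartile factors, the 7 genes turned to −0.03 and the nuclear calls to 40 higher and 9 lower. Of all 14507 genes tested, 3921 were then higher and 5465 lower. This comparison and stimulation without PGE2 share no libraries.

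**Figure D4:**
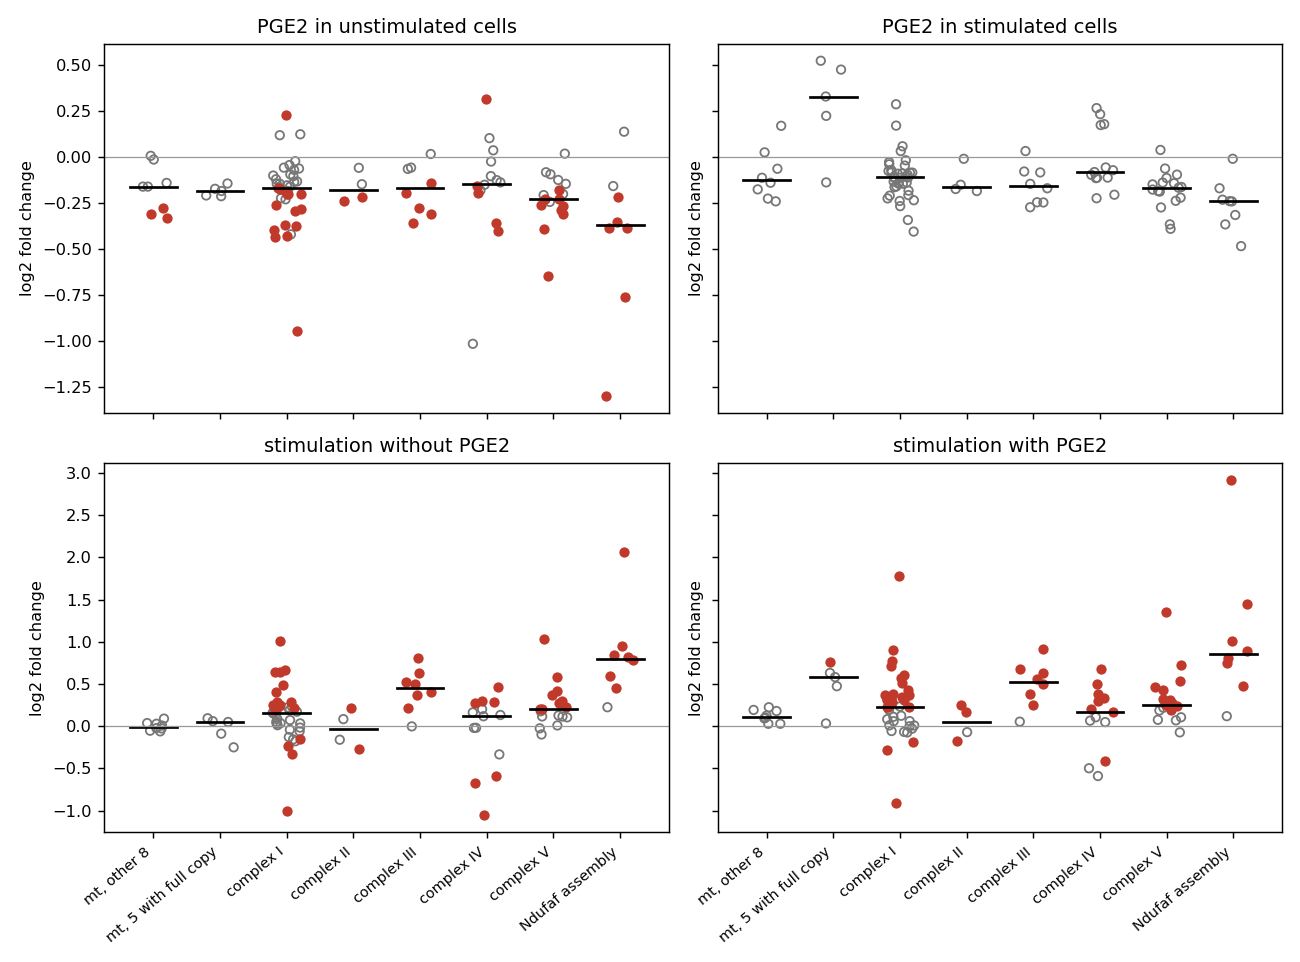
Log2 fold change of each tested member in the 4 comparisons, grouped by complex, with called members filled in red, others open, and a line at the median. In both stimulation panels the assembly factors and complex III lie highest (medians 0.80 and 0.46 without PGE2), and the mt genes have medians of 0.01 and 0.18. In unstimulated cells with PGE2 most points lie below 0. The upper and lower panels have different scales.

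PGE2 given to unstimulated cells lowered transcripts across the complexes. Of 88 nuclear members, 40 were lower and 2 (Ndufv3 and Cox7a2) higher, where 15.5% of all genes tested were lower and 12.9% higher. The median was −0.18 over the nuclear members, −0.17 over the mt genes and −0.001 over all genes. The mt median was −0.10 without replicate 1 and −0.32 without replicate 4 of the PGE2 group. Among the nuclear members, 50 did not overlap between the groups and were lower and 0 did not overlap and were higher, beside 16.8% and 12.1% of all genes. The lower calls comprised 6 of 8 assembly factors (median −0.37), 9 of 17 complex V (−0.23), 5 of 8 complex III (−0.17), 2 of 4 complex II (−0.18), 14 of 37 complex I (−0.17) and 4 of 14 complex IV (−0.14) genes. Ndufaf4 alone also reached a 2-fold change, against 3.38% of all genes. Of the mt genes, mt-Nd1, mt-Nd2 and mt-Nd6 were lower. With the replicate number as a block, 61 nuclear and 6 mt genes were lower and 3 nuclear genes higher, beside 24.2% and 23.6% of all genes. Without replicate 2 of the unstimulated PGE2 group, 25 members were called instead of 45. The count over all genes in that fit is not given here, so the drop is not shown to be particular to the members.

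PGE2 given before stimulation passed the test for none of the 87 nuclear and 13 mt genes in edgeR, where 9.84% of all genes were called. At an unadjusted p below 0.05 there were 36 nuclear and 3 mt genes, beside 27.0% of all genes. DESeq2 called 16% of all genes (1245 higher and 976 lower of 13922) and 18 members (17 nuclear and 1 mt), these 18 all lower. The lowest adjusted p values were those of Atp5f1, Atp5o and Ndufaf2, with Atp5f1, the b subunit of the complex V stalk, at a log2 fold change (± SE) of −0.22 ± 0.06 (adjusted p = 0.0507), or −0.22 (adjusted p = 0.00252) with the block. The nuclear median was −0.14, with 77 of 87 genes below 0, beside −0.006 over all genes, and the mt median −0.06. Without replicate 1 of the stimulated untreated group the nuclear median was −0.08, and the mt median was −0.12 without replicate 1 and −0.03 without replicate 4 of the stimulated PGE2 group. The groups did not overlap in 22 nuclear genes, all lower with PGE2, against 8.32% of all genes lower and 9.58% higher. With the replicate number as a block, 44 nuclear and 4 mt genes were lower and 4 nuclear genes (Cox7a2l, Cox7a2, Ndufv3 and Ndufa6) higher, beside 20.7% and 19.1% of all genes. The lower ones then comprised 7 of 8 assembly factors, 12 of 17 complex V, 5 of 8 complex III, 3 of 4 complex II, 15 of 37 complex I and 2 of 13 complex IV genes. Without replicate 1 of the stimulated PGE2 group, 6 members were called without a block. The count was 1 without replicate 2 of that group and 1 without replicate 4 of the stimulated untreated group. Counts over all genes in these fits are not given here, so the changes are not shown to be particular to the members.

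The comparisons of PGE2 in unstimulated and stimulated cells share no libraries. All 43 members lower with PGE2 in unstimulated cells had a log2 fold change below 0 in stimulated cells as well, and in 37 it was smaller in size. Of the 2239 genes of any kind that were lower in unstimulated cells and tested in both, 98.1% were below 0 in stimulated cells and 2014 were smaller in size. The interaction, which tests whether the effect of PGE2 differs between the 2 states, was called for none of 101 members, where 0.749% of all genes were called. At an unadjusted p below 0.05 there were 4 nuclear and 0 mt genes, beside 9.37% of all genes. The 3 with the lowest adjusted p were Ndufaf4 at 0.82 ± 0.25 (adjusted p = 0.178), Ndufaf6 at 0.46 ± 0.14 (adjusted p = 0.205) and Ndufa4 at 0.23 ± 0.10 (adjusted p = 0.511). Ndufaf4 passed with the replicate number as a block (0.81, adjusted p = 0.0152) and without replicate 4 of the stimulated PGE2 group (0.96, adjusted p = 0.0188).

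Among the assembly factors, which help to build complex I and are not part of it, Ndufaf4 had the largest change of any member. It lies on chromosome 4 (GRCm38, 24898083 to 24905001, plus strand). Its 4 replicates were at 22.3, 22.9, 18.6 and 21.1 CPM in unstimulated untreated cells and at 9.10, 9.37, 7.08 and 8.48 CPM with PGE2. After stimulation they were at 109, 91.4, 80.4 and 75.4 CPM, and with PGE2 before stimulation at 82.7, 75.3, 53.6 and 41.6 CPM. Every library with PGE2 and without beads lay below every untreated unstimulated one, every stimulated library lay above both, and the 2 stimulated groups overlapped, since replicate 1 with PGE2 exceeded untreated replicates 3 and 4. On the log2 scale stimulation raised Ndufaf4 by 2.06 ± 0.12 (adjusted p = 3.68e-08) without and 2.92 ± 0.21 (adjusted p = 2.01e-06) with PGE2. PGE2 gave −1.30 ± 0.10 (adjusted p = 8.68e-06) in unstimulated cells. In stimulated cells it gave −0.48 ± 0.20 (adjusted p = 0.152), or −0.51 (adjusted p = 0.000607) with the block.

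Ndufaf6, an assembly factor linked to the mitochondrially encoded subunit ND1, moved likewise at a lower level. It was at 8.82, 8.29, 9.35 and 10.4 CPM in unstimulated untreated cells and 4.74, 5.26, 5.59 and 5.80 CPM with PGE2, and at 18.6, 18.9, 17.2 and 17.4 CPM after stimulation and 16.4, 14.6, 14.2 and 12.4 CPM with both. No pair of groups along a comparison overlapped. The log2 fold changes were 0.95 ± 0.10 (adjusted p = 3.27e-06) for stimulation alone, 1.44 ± 0.13 (adjusted p = 4.49e-06) for stimulation with PGE2 and −0.76 ± 0.12 (adjusted p = 0.000664) for PGE2 alone. For PGE2 in stimulated cells it was −0.32 ± 0.10 (adjusted p = 0.0689), or −0.32 (adjusted p = 0.00552) with the block. Ndufaf3 was the assembly factor that neither stimulation comparison called.

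In complex I, Ndufab1, the mitochondrial acyl carrier protein, was at 47.02, 48.9, 45.95 and 49.1 CPM in unstimulated untreated cells, 30.5, 35.3, 35.6 and 37.9 CPM with PGE2, 79.3, 78.5, 71.5 and 75.7 CPM after stimulation and 64.96, 73.3, 59.4 and 60.3 CPM with both. The stimulated libraries lay above the unstimulated ones throughout, and the PGE2 libraries lay below the untreated ones in unstimulated cells without overlap. The log2 fold changes were 0.66 ± 0.07 (adjusted p = 2.26e-06) for stimulation, 0.90 ± 0.10 (adjusted p = 2.14e-05) for stimulation with PGE2 and −0.43 ± 0.08 (adjusted p = 0.00157) for PGE2 in unstimulated cells. In stimulated cells PGE2 gave −0.23 (adjusted p = 0.0868), or −0.24 (adjusted p = 0.00261) with the block.

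Ndufa5, a subunit of the peripheral arm, was at 30.8, 29.2, 27.9 and 31.98 CPM in unstimulated untreated cells, 19.5, 21.9, 21.7 and 24.5 CPM with PGE2, 58.2, 45.7, 44.2 and 40.9 CPM after stimulation and 40.97, 35.95, 33.5 and 38.1 CPM with both. The groups were apart in both stimulation comparisons and for PGE2 alone, with log2 fold changes of 0.65 ± 0.11 (adjusted p = 0.000199), 0.77 ± 0.10 (adjusted p = 5.89e-05) and −0.43 ± 0.08 (adjusted p = 0.00298). In stimulated cells PGE2 gave −0.34 (adjusted p = 0.0761), or −0.34 (adjusted p = 0.00176) with the block.

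Ndufa12 varied more between replicates. Its counts were 30.7, 26.5, 30.4 and 16.7 CPM in unstimulated untreated cells and 11.2, 11.3, 16.9 and 13.7 CPM with PGE2, and 70.4, 55.9, 57.6 and 26.9 CPM after stimulation and 59.1, 27.2, 51.6 and 43.7 CPM with both. Replicate 4 of the untreated groups and replicate 2 of the stimulated PGE2 group were low, so that untreated groups overlapped between the states and with PGE2 alone, whereas every stimulated PGE2 library lay above every unstimulated PGE2 library. The log2 fold changes were 1.01 ± 0.26 (adjusted p = 0.00377) for stimulation, 1.78 ± 0.23 (adjusted p = 5.23e-05) for stimulation with PGE2 and −0.94 ± 0.20 (adjusted p = 0.00396) for PGE2 alone. A processed pseudogene, Gm15920, matches 400 of 402 bases of its transcript and took 29.5% of the summed counts. With both added, these changes were 0.87 (adjusted p = 7.35e-05), 1.34 (adjusted p = 4.62e-06) and −0.71 (adjusted p = 0.000162).

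Ndufv3, a small subunit of the NADH-oxidising module, went the other way. It lies on chromosome 17 (GRCm38, 31520115 to 31531326, plus strand). The replicates were at 108, 108, 121 and 110.5 CPM in unstimulated untreated cells and 119.9, 123, 143 and 131 CPM with PGE2, and at 50.1, 47.9, 64.5 and 63.7 CPM after stimulation and 55.5, 55.7, 78.8 and 84.3 CPM with both. Every stimulated library lay below every unstimulated one. Stimulation lowered Ndufv3 by a log2 fold change of −1.004 ± 0.10 (adjusted p = 1.46e-06) without and −0.90 ± 0.14 (adjusted p = 0.000156) with PGE2, whereas PGE2 gave 0.23 ± 0.07 (adjusted p = 0.0391) in unstimulated cells, where the groups overlapped by 1 library and 7 of 22 alternatives lost the call. These were limma without a filter, the joint fit of 16 samples, and fits without replicate 1, 2 or 4 of the untreated or replicate 3 or 4 of the PGE2 group, with values of 0.17 to 0.23. In stimulated cells PGE2 gave 0.29 (adjusted p = 0.276), or 0.27 (adjusted p = 0.00129) with the block.

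Ndufb11, a subunit of the membrane arm, was also lower in stimulated cells, at 90.6, 76.9, 84.2 and 84.3 CPM against 123, 97.9, 104 and 94.05 CPM without PGE2 and 83.2, 76.5, 79.8 and 84.1 against 110.0, 95.6, 97.7 and 93.9 CPM with it. The groups did not overlap in either comparison, with log2 fold changes of −0.33 ± 0.09 (adjusted p = 0.00552) and −0.28 ± 0.07 (adjusted p = 0.00403). Its exons share 12.9% of their bases with Rbm10 on the opposite strand, and the use of strand in counting is not given in the sources used here. Ndufa4 was at 99.5, 92.1, 89.7 and 90.5 CPM in unstimulated untreated and 69.02, 69.9, 67.1 and 76.9 CPM in unstimulated PGE2 libraries, without overlap (−0.37 ± 0.06, adjusted p = 0.000825). After stimulation it was at 128, 111, 105 and 104 CPM, and with PGE2 at 108, 96.5, 93.7 and 101 CPM. Stimulation gave 0.26 ± 0.08 (adjusted p = 0.0149) without PGE2, a call that was lost with no scaling factors (0.10), and 0.51 ± 0.08 (adjusted p = 0.000153) with PGE2. PGE2 in stimulated cells was not called for Ndufa4 without the block, and was called lower with it (−0.16, adjusted p = 0.013).

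The 4 subunits of complex II, which is also the succinate dehydrogenase of the citric acid cycle, went apart. Sdhd, a membrane anchor, was at 137, 135, 132 and 142 CPM in unstimulated untreated cells, 109.7, 112, 115 and 119.8 CPM with PGE2, 123, 108, 109 and 119 CPM after stimulation and 102, 101, 94.4 and 104 CPM with both. Both the PGE2 libraries and the stimulated libraries lay below the unstimulated untreated ones without overlap. The log2 fold changes were −0.27 ± 0.07 (adjusted p = 0.00396) for stimulation, −0.24 ± 0.06 (adjusted p = 0.00785) for PGE2 in unstimulated cells and −0.17 ± 0.07 (adjusted p = 0.0442) for stimulation with PGE2. The last of these was not called with the block (−0.17) and without replicate 2 or 4 of the unstimulated PGE2 group or replicate 1, 3 or 4 of the stimulated PGE2 group (−0.15 to −0.18). Sdhb, the iron-sulfur subunit, was at 133, 120.2, 125 and 125 CPM in unstimulated untreated and 155, 143, 149 and 142 CPM in stimulated untreated libraries, the stimulated ones all higher (0.22 ± 0.07, adjusted p = 0.0115). With PGE2, it was at 107, 113, 108 and 119 and 131, 131, 128 and 138 CPM, again all higher after stimulation (0.25 ± 0.07, adjusted p = 0.00543). Both calls were lost under upper-quartile factors (0.12 and 0.13), with no factors (0.07 and 0.10) and with no filter (0.20 and 0.20).

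Sdhc, the other membrane anchor, was at 93.99, 83.8, 83.9 and 82.7 CPM in unstimulated untreated and 74.99, 70.7, 72.98 and 73.6 CPM in unstimulated PGE2 libraries, and all of the latter were lower (−0.22 ± 0.05, adjusted p = 0.0117), a call lost without replicate 2 of the PGE2 group (−0.19, adjusted p = 0.0711). In stimulated cells it was at 98.7, 90.2, 88.04 and 91.4 CPM without and 82.97, 82.7, 76.2 and 83.1 CPM with PGE2. Stimulation gave 0.08 (adjusted p = 0.308) without PGE2 and 0.17 (adjusted p = 0.0365) with it. The latter lost its call in 17 of 22 alternatives, among them without any 1 of the libraries except replicate 4 of the stimulated PGE2 group (0.12 to 0.17). Under upper-quartile factors it was 0.04. Sdha, the flavoprotein that oxidises succinate, was at 262, 249, 235 and 246 CPM in unstimulated untreated, 249, 239, 214 and 238 CPM in unstimulated PGE2, 239.7, 212, 217 and 227 CPM in stimulated untreated and 231, 217, 209 and 229 CPM in stimulated PGE2 libraries. These groups overlapped in all 4 comparisons, and no comparison called Sdha without the block, with log2 fold changes of −0.16, −0.07, −0.06 and −0.01 for stimulation without and with PGE2 and for PGE2 in unstimulated and stimulated cells. With the block, PGE2 in stimulated cells was called for Sdhb (−0.15, adjusted p = 0.0182), Sdhc (−0.17, adjusted p = 0.00573) and Sdhd (−0.18, adjusted p = 0.00492), and not for Sdha (−0.01, adjusted p = 0.867). The block also called Sdha lower with stimulation without PGE2 (−0.16, adjusted p = 0.0155) and Sdhb lower with PGE2 in unstimulated cells (−0.15, adjusted p = 0.0108).

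In complex III, the cytochrome c1 gene Cyc1 was not matched by the rule and was read with the list of electron carriers. Of the 8 nuclear complex III subunits that were matched, 7 rose with stimulation both without and with PGE2. They ranged from Uqcrc2, a core protein, with 0.21 and 0.25 on the log2 scale, to Uqcrq. Uqcrh, the hinge protein, was the exception, with −0.002 (adjusted p = 0.985) and 0.05 (adjusted p = 0.537). Uqcrq, a small subunit that binds next to cytochrome b, was at 100.3, 85.7, 95.003 and 87.5 CPM in unstimulated untreated cells, 72.1, 71.8, 66.9 and 82.6 CPM with PGE2, 186, 148, 166 and 150.4 CPM after stimulation and 151, 137, 125 and 132 CPM with both. No stimulated library reached down to the unstimulated ones, and PGE2 libraries without beads were all below their untreated counterparts. The log2 fold changes were 0.81 ± 0.09 (adjusted p = 5.6e-06) for stimulation, 0.91 ± 0.09 (adjusted p = 9.06e-06) for stimulation with PGE2, and −0.31 ± 0.07 (adjusted p = 0.00991) for PGE2 in unstimulated cells. In stimulated cells PGE2 gave −0.25 (adjusted p = 0.104), or −0.25 (adjusted p = 0.00364) with the block.

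In complex IV, Cox5a, a subunit found in all tissues, was at 80.4, 81.9, 80.1 and 80.7 CPM in unstimulated untreated cells, 59.9, 57.8, 58.3 and 65.3 CPM with PGE2, 118, 112, 115 and 104 CPM after stimulation and 101, 101, 90.6 and 89.5 CPM with both. These groups did not overlap in the stimulation comparisons or for PGE2 alone, with log2 fold changes of 0.46 ± 0.07 (adjusted p = 4.8e-05) and 0.68 ± 0.08 (adjusted p = 2.56e-05) for stimulation without and with PGE2, and −0.40 ± 0.06 (adjusted p = 0.000305) for PGE2 in unstimulated cells. In stimulated cells PGE2 gave −0.22 (adjusted p = 0.067), or −0.23 (adjusted p = 0.00251) with the block. Cox7a2l was at 409, 372, 369.5 and 315 CPM in unstimulated untreated cells, 389.8, 382, 380.2 and 328 CPM with PGE2, 254, 221, 263 and 241 CPM after stimulation and 257, 259, 293 and 289 CPM with both. All stimulated libraries lay below all unstimulated ones (−0.59 ± 0.09, adjusted p = 6.25e-05 without and −0.42 ± 0.07, adjusted p = 0.000571 with PGE2). PGE2 gave 0.04 (adjusted p = 0.797) in unstimulated and 0.17 (adjusted p = 0.182) in stimulated cells, the latter 0.17 (adjusted p = 0.0143) with the block. Cox7a2, the common form of the same subunit, was at 99.99, 78.8, 85.99 and 83.8 CPM in unstimulated untreated and 108, 97.6, 111 and 111 CPM in unstimulated PGE2 libraries, which overlapped because untreated replicate 1 lay above PGE2 replicate 2 but were called (0.31 ± 0.08, adjusted p = 0.00949). It was at 113, 90.6, 102 and 97.998 CPM after stimulation and at 119, 109.6, 106 and 119.9 CPM with PGE2 before it (0.18, adjusted p = 0.173, or 0.18, adjusted p = 0.0158 with the block), and neither stimulation comparison called it without the block. With the block, stimulation without PGE2 gave 0.20 (adjusted p = 0.0043).

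In complex V, the 3 genes for the c subunit of the proton-driven ring, which encode the same mature protein with different import sequences, responded unequally. Atp5g1, on chromosome 11 (GRCm38, 96068852 to 96075670, minus strand), was at 52.5, 50.5, 47.9 and 47.6 CPM in unstimulated untreated cells and 26.1, 32.3, 27.7 and 38.4 CPM with PGE2. After stimulation it was at 121, 102, 95.8 and 89.6 CPM, and with PGE2 at 91.9, 82.1, 71.1 and 70.1 CPM. Stimulated libraries lay above unstimulated ones without overlap, and PGE2 libraries below untreated ones in unstimulated cells. The log2 fold changes were 1.03 ± 0.10 (adjusted p = 1.14e-06) for stimulation, 1.35 ± 0.14 (adjusted p = 1.24e-05) for stimulation with PGE2, −0.65 ± 0.11 (adjusted p = 0.00118) for PGE2 in unstimulated cells and −0.37 ± 0.11 (adjusted p = 0.0649) for PGE2 in stimulated cells, or −0.37 (adjusted p = 6.84e-05) with the block. With the counts of its processed pseudogene Gm10039 added, which took 25.5% of the sum, the first 3 were 1.00, 1.26 and −0.58.

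Atp5g3 was at 196, 172, 179 and 171 CPM in unstimulated untreated cells, 154, 141, 134 and 150.1 CPM with PGE2, 306, 276, 261 and 236 CPM after stimulation and 275, 243, 202 and 223 CPM with both. It rose with stimulation (0.58 ± 0.09, adjusted p = 0.000107 without and 0.72 ± 0.10, adjusted p = 9.21e-05 with PGE2) and was lower with PGE2 in unstimulated cells (−0.29 ± 0.06, adjusted p = 0.00443), each time without overlap. In stimulated cells PGE2 gave −0.18 (adjusted p = 0.284), or −0.19 (adjusted p = 0.0157) with the block. Atp5g2 was at 243, 216, 224 and 229.7 CPM in unstimulated untreated, 224, 191, 221 and 213 CPM in unstimulated PGE2, 242, 216, 235 and 234 CPM in stimulated untreated and 220.1, 203, 233 and 227 CPM in stimulated PGE2 libraries. All 4 groups overlapped, and no comparison called it. As a share of the summed FPKM of the 3 genes, Atp5g1 held 4.42% ± 0.20 (SD, n = 4) in unstimulated untreated cells, 3.19% ± 0.61 with PGE2, 7.33% ± 0.51 after stimulation and 6.25% ± 0.57 with both. Atp5g2 remained the largest at 59.6%, 63.6%, 49.0% and 51.6%, and Atp5g3 held 35.9%, 33.3%, 43.6% and 42.1%.

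**Figure D5:**
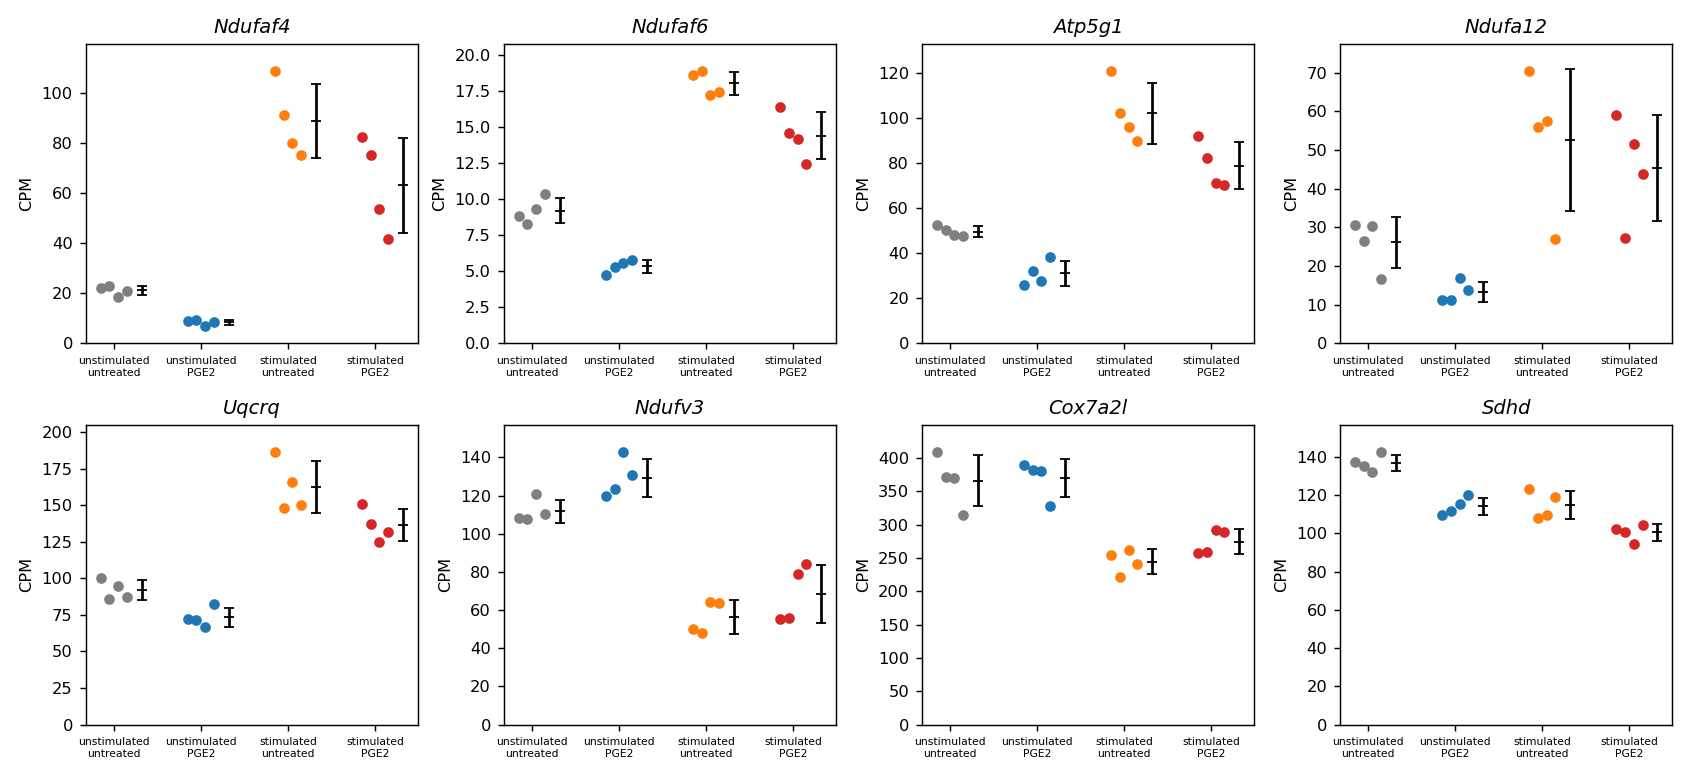
CPM in each of the 16 libraries for 8 nuclear members, with the mean and SD of the 4 replicates beside them and axes starting at 0. Ndufaf4, Ndufaf6, Atp5g1 and Uqcrq lie highest in stimulated libraries and lowest in unstimulated PGE2 libraries, Ndufa12 scatters more, and Ndufv3, Cox7a2l and Sdhd are lower after stimulation, with Ndufv3 at 47.9 to 64.5 CPM in stimulated untreated against 108 to 121 CPM in unstimulated untreated libraries.

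The other isoform sets were dominated by 1 member in every group. Cox4i1, Cox6a1, Cox6b1, Cox8a and Ndufa4 each held over 98% of the summed FPKM of their set, and the tissue-specific forms Cox4i2, Cox6a2, Cox8b, Cox8c and Ndufa4l2 each under 1%. Cox6b2, the testis form, held 1.39%, 1.38%, 0.638% and 0.822% in unstimulated untreated, unstimulated PGE2, stimulated untreated and stimulated PGE2 cells. In the Cox7a set, Cox7a2 held 22.3% ± 1.64 (SD, n = 4) in unstimulated untreated, 25.8% ± 2.23 in unstimulated PGE2, 33.2% ± 1.21 in stimulated untreated and 33.3% ± 2.32 in stimulated PGE2 cells. Cox7a1, the muscle form, held under 1%, and Cox7a2l the rest.

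In the fit with TMM factors and no block, the only mt genes called were of complex I, which has 7 of the 13 mt genes. With the block, mt-Cytb of complex III was called too. mt-Nd1 was at 1162, 1048, 872 and 1153 CPM in unstimulated untreated cells, 869, 814, 682 and 947 CPM with PGE2, 1203, 1056, 1077 and 1210.3 CPM after stimulation and 1066, 937, 920.3 and 904 CPM with both. Within each replicate number the PGE2 library was the lower one in both states, but the groups overlapped. PGE2 gave −0.33 ± 0.11 (adjusted p = 0.0375) in unstimulated and −0.24 ± 0.08 (adjusted p = 0.0803) in stimulated cells, and −0.33 (adjusted p = 2.96e-06) and −0.24 (adjusted p = 0.0045) with the replicate block.

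mt-Nd2 was at 665, 584, 503 and 636 CPM in unstimulated untreated and 496, 478, 415 and 512 CPM in unstimulated PGE2 libraries (−0.31 ± 0.09, adjusted p = 0.0229). In stimulated cells it was at 651, 535, 586 and 598 CPM without and 558, 488, 499.5 and 471 CPM with PGE2 (−0.23 ± 0.08, adjusted p = 0.1, or −0.23, adjusted p = 0.00354 with the block). mt-Nd6 shares 14 bases with mt-Nd5 and lies on the opposite strand, so that its values cannot be told apart from reads of the other strand if strand was not used in counting. It was at 623, 514, 476 and 570.4 CPM in unstimulated untreated and 451, 444, 401 and 478 CPM in unstimulated PGE2 libraries (−0.28 ± 0.08, adjusted p = 0.0285). In stimulated cells it was at 631, 509, 563 and 556 CPM without and 522, 475, 513 and 479 CPM with PGE2 (−0.18 ± 0.07, adjusted p = 0.163, or −0.17, adjusted p = 0.0102 with the block). All groups overlapped for both genes. The 3 calls in unstimulated cells were each lost without replicate 1, 2 or 4 of the untreated group or replicate 2 or 3 of the PGE2 group, with log2 fold changes of −0.26 to −0.32 for mt-Nd1, −0.26 to −0.30 for mt-Nd2 and −0.21 to −0.29 for mt-Nd6.

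mt-Co1, the catalytic subunit of complex IV and the most abundant member, was at 9597, 9119.8, 9299 and 9435 CPM in unstimulated untreated and 8890.5, 9148, 9369 and 9147 CPM in unstimulated PGE2 libraries. It was at 8856, 8743, 9976 and 8897 CPM in stimulated untreated and 8946, 8627, 10513 and 8856 CPM in stimulated PGE2 libraries. The groups overlapped throughout, and the log2 fold changes were −0.05 (adjusted p = 0.556) and 0.03 (adjusted p = 0.747) for stimulation without and with PGE2 and −0.01 (adjusted p = 0.897) and 0.03 (adjusted p = 0.869) for PGE2 in unstimulated and stimulated cells. mt-Cytb, the only mt gene of complex III, was at 1232, 1154, 1103 and 1354 CPM in unstimulated untreated, 953, 1048, 1015 and 1249 CPM in unstimulated PGE2, 1210.0, 1154, 1271 and 1355 CPM in stimulated untreated and 1141, 1036, 1199 and 1132 CPM in stimulated PGE2 libraries. Without the block no comparison called it, and with the block PGE2 gave −0.17 (adjusted p = 0.00931) in unstimulated and −0.14 (adjusted p = 0.0385) in stimulated cells. The blocked fit in unstimulated cells also called mt-Nd5 (−0.14, adjusted p = 0.00632) and mt-Nd4 (−0.16, adjusted p = 0.00341).

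Of the mt genes with nuclear copies, mt-Nd4l, a small complex I subunit gene, was at 1.55, 4.14, 3.31 and 4.05 CPM in unstimulated PGE2 and 7.96, 4.94, 4.67 and 4.36 CPM in stimulated PGE2 libraries, without overlap, and was called in that comparison (0.76 ± 0.30, adjusted p = 0.047). The call was lost in 14 of 22 alternatives, among them with the block (0.76, adjusted p = 0.107) and without replicate 1 of the stimulated PGE2 group (0.51, adjusted p = 0.147). It was likewise lost without replicate 2 or 3 of that group (0.77 and 0.80) and without replicate 1 or 3 of the unstimulated PGE2 group (0.49 and 0.72). mt-Co2 was at 45.7, 60.4, 80.5 and 68.3 CPM in unstimulated untreated, 28.3, 56.5, 46.9 and 88.6 CPM in unstimulated PGE2, 36.5, 53.6, 82.9 and 98.3 CPM in stimulated untreated and 111, 59.01, 79.5 and 89.9 CPM in stimulated PGE2 libraries, and no comparison called it. For mt-Co3, mt-Atp6 and mt-Nd3, and for mt-Atp8, which has no annotated copy, the log2 fold changes were 0.58, 0.47, 0.03 and 0.19 for stimulation with PGE2 and 0.09, −0.25, −0.09 and −0.03 without it, none of them called.

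Genes that serve the chain without matching the rule were read from lists, to be set against all genes tested. Of these, stimulation called 31.7% higher and 34.8% lower without PGE2, and 32.5% and 31.7% with it. PGE2 called 12.9% higher and 15.5% lower in unstimulated cells, and 841 higher and 529 lower of 13922 genes in stimulated cells. A list count near these shares is not a result about that list. Of 17 tested genes for mitochondrial RNA processing and stability, 16 were higher and 1 lower after stimulation without PGE2 (median log2 fold change 1.11) and 16 higher with PGE2 (1.19), and 9 were lower with PGE2 in unstimulated cells (−0.34). Elac2, which cuts tRNAs out of mitochondrial precursors, was at 152 against 49.9 CPM (log2 fold change 1.59, adjusted p = 8.35e-08) for stimulation, and at 28.6 against 49.9 CPM (log2 fold change −0.79, adjusted p = 2.01e-05) for PGE2 in unstimulated cells. Of 19 genes for protein import and inner membrane shape, 16 were higher in both stimulation comparisons (0.91 and 0.96) and 12 lower with PGE2 in unstimulated cells (−0.30). Tomm40, the pore of the outer membrane, gave 1.81 (adjusted p = 2.8e-08) and 1.98 (adjusted p = 2.41e-06) for stimulation without and with PGE2, and Hspd1, the matrix chaperonin, −0.79 (adjusted p = 0.00089) for PGE2 alone. PGE2 in stimulated cells called 1 lower gene in the first list (Hsd17b10, −0.30, adjusted p = 0.0444) and none of either direction in the second.

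Of 17 genes for replication and transcription of mitochondrial DNA, 8 were higher and 2 lower with stimulation (0.18), 11 higher and 3 lower with stimulation under PGE2 (0.35), and 2 higher and 9 lower with PGE2 in unstimulated cells (−0.24). Top1mt, the mitochondrial topoisomerase, was at 36.3 against 7.52 CPM (log2 fold change 2.25, adjusted p = 1.71e-08) for stimulation and gave −1.05 (adjusted p = 0.000418) for PGE2 alone. Twnk, the mitochondrial DNA helicase, gave 0.99 (adjusted p = 4.78e-07) and −0.76 (adjusted p = 9.64e-05). Polg, the polymerase, was higher with PGE2, with 0.32 (adjusted p = 0.000724) in unstimulated and 0.25 (adjusted p = 0.0312) in stimulated cells, where the same list had 1 higher and 2 lower genes (−0.15). Of 12 tested transcription factors and coactivators known to act on nuclear respiratory genes, 6 were higher and 4 lower with stimulation (0.22), 7 higher and 1 lower under PGE2 (0.25), 4 lower with PGE2 in unstimulated cells (−0.14) and 0 called in stimulated cells (−0.08). The largest were Myc, at 1182 against 137 CPM (log2 fold change 3.10, adjusted p = 1.33e-08) for stimulation, and Pprc1, a coactivator of the PGC-1 family, at 308 against 57.99 CPM (log2 fold change 2.40, adjusted p = 1.16e-08). With PGE2 alone these gave −0.96 (adjusted p = 0.000422) and −1.66 (adjusted p = 2.98e-06).

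Of 41 tested assembly factors outside the Ndufaf family, 20 were higher and 6 lower with stimulation (0.24), 24 higher and 5 lower under PGE2 (0.39), 14 lower with PGE2 alone (−0.18) and 5 lower with PGE2 in stimulated cells (−0.09). Sco1, a copper carrier for complex IV, gave 1.42 (adjusted p = 1.53e-07), and Tmem126b, a complex I assembly factor, −1.33 (adjusted p = 1.89e-07), for stimulation. Among 18 genes of electron carriers and quinone synthesis, 10 were higher and 5 lower with stimulation (0.47), 11 higher and 3 lower under PGE2 (0.55), 2 higher and 6 lower with PGE2 in unstimulated cells (−0.15), and 2 higher and 4 lower in stimulated cells (−0.16). Cycs, which encodes cytochrome c, was at 202 against 75.7 CPM (log2 fold change 1.41, adjusted p = 2.16e-07) for stimulation. Coq8a, an atypical kinase for quinone synthesis, was at 19.9 against 8.09 CPM (log2 fold change 1.31, adjusted p = 0.000109) for PGE2 in stimulated cells. Of the lists' genes, the interaction was called for Coq8a, Twnk and Pprc1 and no other.

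Of 18 citric acid cycle genes, 11 were higher and 1 lower in each stimulation comparison (0.17 and 0.26), 7 lower with PGE2 in unstimulated cells (−0.13) and 1 lower in stimulated cells (−0.13). Idh3a, a subunit of isocitrate dehydrogenase, gave 1.15 (adjusted p = 1.62e-07) for stimulation and −0.60 (adjusted p = 3.62e-05) for PGE2 alone. Of 9 tested genes for nucleotide exchange and uncoupling, 5 were higher and 2 lower with stimulation (0.34), 6 higher and 2 lower under PGE2 (0.34), 4 lower with PGE2 alone (−0.15) and 1, Ucp2, lower in stimulated cells (−0.29, adjusted p = 0.0123). Of 23 genes for glycolytic ATP and lactate, PGE2 alone called 6 higher and 2 lower (0.19), and stimulation called 14 higher and 2 lower without (0.43) and 12 higher and 2 lower with PGE2 (0.32). PGE2 in stimulated cells called 2 higher and 1 lower of these 23 (0.07). Slc16a3, a lactate exporter, gave 0.52 (adjusted p = 0.000178) and 0.45 (adjusted p = 0.00327) for PGE2 in unstimulated and stimulated cells, and Hk1, a hexokinase, 0.43 (adjusted p = 0.000506) and 0.48 (adjusted p = 0.0336). Slc16a1, the other lactate carrier, went the other way with PGE2 alone (−0.62, adjusted p = 0.000133) and rose with stimulation (1.998, adjusted p = 5.88e-08).

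The promoters were searched for short motifs in the RefSeq table for GRCm38.p6, from 250 bases before to 50 after the start, on both strands. Of the 94 nuclear members, 76 were in the table. The NRF1 motif GCGCANGCG was present in 22 of them (28.9%), against 7.0% of all 27025 genes in the table. That background includes genes not expressed in these cells, and expressed genes alone were not compared. The differences are therefore not shown to be particular to the members. CCGGAAG, for ETS factors such as GABPA, was present in 23.7% against 9.9%, AANATGGC, for YY1, in 25.0% against 7.0%, the E-box CACGTG in 7.9% against 8.1%, and the cAMP response element TGACGTCA in 5.3% against 2.0%. The NRF1 motif was found in 12 of 35 members higher with stimulation (34.3%), 2 of 7 lower (28.6%) and 8 of 32 not called (25.0%). In unstimulated cells with PGE2 it was found in 11 of 33 lower members (33.3%) and 11 of 39 not called (28.2%), and the cAMP response element in 2 of 33 (6.06%) and 2 of 39 (5.13%). The 250 bases before the start are shown for the members with the largest rise and fall on stimulation above 5 CPM, Ndufaf4 (chr4:24897833-24898082, plus strand), where capitals mark a palindrome that matches the NRF1 motif on both strands at −113 to −105 and −112 to −104, and Ndufv3 (chr17:31519865-31520114, plus strand), in which none of the motifs was found.
Ndufaf4 upstream: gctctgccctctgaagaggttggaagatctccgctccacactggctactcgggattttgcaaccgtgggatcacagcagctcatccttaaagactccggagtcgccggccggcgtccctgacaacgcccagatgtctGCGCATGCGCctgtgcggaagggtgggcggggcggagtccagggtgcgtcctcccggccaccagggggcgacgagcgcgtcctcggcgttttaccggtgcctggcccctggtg
Ndufv3 upstream: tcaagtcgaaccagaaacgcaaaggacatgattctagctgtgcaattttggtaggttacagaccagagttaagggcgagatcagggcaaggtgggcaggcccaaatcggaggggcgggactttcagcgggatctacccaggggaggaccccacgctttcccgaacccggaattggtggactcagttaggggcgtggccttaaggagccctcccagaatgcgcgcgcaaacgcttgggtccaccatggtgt
A match is a description of the letters and does not show that a factor binds.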

How the data were processed

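Poly(A) RNA of 16 samples, 4 in each of 4 groups, was sequenced in read pairs by the authors. Per the labels and the study's methods, reads were aligned to the mouse genome GRCm38/mm10 with HISAT2 2.0.5 and the authors deposited raw counts per gene from featureCounts 1.5.0-p3, with DESeq2 1.20.0 also named in the submitters' processing notes. The authors also deposited FPKM values, which equal the count divided by the gene length and the library's total up to 1 factor per library and carry no further scaling. The use of strand in counting, the treatment of reads with several matches and the annotation release are not given in the sources used here. The members, gene lists and rules were chosen with earlier results of these data known.

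Genes were kept by filterByExpr (minimum count 10) and tested with edgeR 4.0.16 in R 4.3.3, by TMM factors and the quasi-likelihood test on the 8 samples of each comparison, or on all 16 for the interaction, with Benjamini-Hochberg adjustment over all genes tested. Every adjusted p in the text is from edgeR's quasi-likelihood test, in this fit unless the block, a library left out, added copies or another alternative is named beside it, and a call is an adjusted p below 0.05. CPM are scaled by TMM over all 16 samples, and averages are given with the SD over 4 replicates. The biological coefficient of variation was between 0.115 and 0.139. Library totals lay between 22678254 and 42950763 counts, so that counting error is small for most members but not for those with fewer than 10 counts. On simulated counts with 200 genes changed 2-fold up or down, all at the same dispersion, the scripts gave back that fold. Smaller changes, such as those of most members, were not simulated.

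Same-numbered libraries deviated together from their group means, with correlations over all genes of 0.19 to 0.423 for PGE2 in stimulated cells, 0.137 to 0.444 for PGE2 in unstimulated cells and 0.112 to 0.359 for stimulation without PGE2, while differently numbered pairs lay between −0.385 and 0.25, −0.378 and 0.124, and −0.28 and 0.125. In the first of these, some differently numbered pairs (0.212 to 0.25) exceeded the lowest same-numbered one. This pairing is read from the data and not from the labels, and blocked values are given beside the results where they change the call of a gene described in full. For stimulation with PGE2, replicates 2 and 4 were at 0.044 and 0.091. Alternatives comprised RLE and upper-quartile factors, no factors, library sizes without mitochondrial genes, other filters, DESeq2 1.42.0, limma 3.58.1 on log2(FPKM + 1) and log2(FPKM + 0.1), the block, the joint fit of 16 samples, a 2-fold threshold, and leaving out each library. Chosen after seeing the data were the addition of counts of near-identical copies to their member and the block with upper-quartile factors.

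The genes named were all mt members, the isoform sets, the Sdh genes and the 3 lowest p of the interaction. From each comparison came the 3 largest rises and falls among nuclear subunits and the 2 largest among assembly factors. These had a mean of at least 5 CPM, a call and no overlap between groups. The 2 largest rises and falls of each list and the 3 highest and lowest levels per complex could also be named. Of these last 2 kinds only some appear in the text, so the genes shown do not stand for their list or complex. Genes outside these rules, such as Atp5f1, Uqcrc2, Ndufa6 and Ndufaf3, were named after their values were seen. Copies were sought with a minimum identity of 98% over 100 bases among annotated transcripts, and all 107 members were matched to GENCODE M21. Promoters and their motifs came from RefSeq (GRCm38.p6).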

Additional observations from a re-analysis of the deposited data

Results flagged for a closer look

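In 116 groups of 4 libraries, each a member or a summary in 1 group, 7 held a library whose gap to its nearest neighbour took an unusually large part of the group's range (above Dixon's critical value). Chance gives about 1 in 20 such groups.

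Replicate 3 stood high for mt-Co1 in both stimulated groups, with 9976 CPM without PGE2, where the others lay between 8743 and 8897 CPM, and 10513 CPM with PGE2, where the others lay between 8627 and 8946 CPM. The log2 ratio of mt to nuclear counts was also highest in replicate 3 of the stimulated PGE2 group, at 0.65 against 0.39 to 0.42. mt-Nd4l was at 7.96 CPM in replicate 1 of the stimulated PGE2 group, against 4.36 to 4.94 CPM in the other three.

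Sdhc was highest in replicate 1 of the unstimulated untreated group, at 93.99 CPM against 82.7 to 83.9 CPM, and lowest in replicate 3 of the stimulated PGE2 group, at 76.2 CPM against 82.7 to 83.1 CPM. Cox7a2l was lowest in replicate 4 of the unstimulated PGE2 group, at 328 CPM against 380.2 to 389.8 CPM. The causes of these deviations were not tested.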

How the results depend on the processing

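For PGE2 in stimulated cells the number of members called, 0, became 1 with upper-quartile factors, 2 with at least 10 counts in every sample and 18 with DESeq2. It was 14 in the joint fit of all 16 samples, 52 with the replicate block and 49 with the block and upper-quartile factors. Leaving out 1 library gave 0 to 6, the 6 without replicate 1 of the stimulated PGE2 group. Over all genes, the calls were 1328 of 13922 with upper-quartile factors, 1342 of 12790 with at least 10 counts in every sample and 2221 of 13922 with DESeq2. They were 2161 of 15096 in the joint fit and 5544 of 13922 with the block. The joint fit called 14 of 101 members, all nuclear and lower, where 1234 of 15096 genes were higher and 927 lower. The 18 members called by DESeq2 were also all lower, where 1245 of 13922 genes were higher and 976 lower. For PGE2 in unstimulated cells the 45 calls became 70 with the replicate block, 68 with the block and upper-quartile factors and 1 with the 2-fold threshold. Leaving out 1 library gave 25 to 44, the 25 without replicate 2 of the unstimulated PGE2 group. Over all genes the block called 6938 of 14505 and the 2-fold threshold left 3.38%. For stimulation without PGE2 (49 calls) and with PGE2 (60 calls) the 2-fold threshold left 5 each, and leaving out 1 library gave 39 to 53 and 50 to 61. The block gave 61 and 60, where same-numbered libraries are not shown to be paired in the latter. Over all genes the block called 10267 of 14205 and 9790 of 14507, and the 2-fold threshold left 23.2% and 22.1%. The interaction count of 0 became 1 with the replicate block, beside 408 of 15096 genes of any kind. It was 1 with the block and upper-quartile factors, and 0 to 1 with 1 library left out. Counts over all genes are not given here for these last 2 kinds of fit in any comparison. The block changed no other count by over 1.5 times. With counts of 27 copies added to 23 members, the calls were 0, 45, 49 and 62 in the 4 comparisons and 0 for the interaction. Counts over all genes are not given for these fits either. The copy added to Ndufc1 was Ube2e1, a separate gene that shares a stretch of 112 bases with it. Ube2e1 held 58.9% of their sum, so the summed Ndufc1 value mostly reflects another gene.

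The nuclear median for stimulation without PGE2, 0.199, fell to 0.102 with upper-quartile factors, 0.047 with no factors and 0.103 with the block and upper-quartile factors, and the mt median to −0.142 with no factors. With PGE2 the nuclear median, 0.254, was 0.127 with upper-quartile factors, 0.103 with no factors, 0.214 with library sizes without mitochondrial genes, 0.2 with no filter, 0.212 with at least 10 counts in every sample, 0.207 with limma on log2(FPKM + 1) without a filter, 0.129 with the block and upper-quartile factors, and 0.206 to 0.288 with 1 library left out. The nuclear median for PGE2 lay between −0.202 and −0.155 in unstimulated and −0.154 and −0.078 in stimulated cells over all alternatives, and the mt median between −0.319 and −0.099 and between −0.116 and −0.011. Of 88 calls of named members, 62 held in all 22 alternatives, 26 were lost in at least 1 and 0 changed sign. The causes of these shifts were not tested. Counted against protein-coding genes only, the mt share averaged 1.64% in unstimulated untreated, 1.56% in unstimulated PGE2, 1.45% in stimulated untreated and 1.47% in stimulated PGE2 libraries, and the nuclear share 1.08%, 0.980%, 1.104% and 1.06%. Depth limits the members with few counts, among them mt-Atp8 and Cox6a2.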
